A study of Mus musculus with 4 samples.

Results

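ILC progenitors (ILCPs) of mouse bone marrow were taken from single-cell RNA-seq of α lymphoid progenitors (αLPs) as the cells with *Id2* and *Zbtb16* reads and few or no reads of *Bcl11b* and *Il1rl1*, and 450 of the 8322 cells kept met this rule. Reads of a gene in a cell were put on the scale ln(1 + reads per 10000), and the limit for every gene of the rule was 1. Members were at or above it for *Id2*, the common regulator of innate lymphoid cells (ILCs), and for *Zbtb16*, which encodes the ILCP factor PLZF. They were below it for *Bcl11b*, a factor of ILC2 commitment, for *Il1rl1*, which encodes the IL-33 receptor ST2, and for *Eomes* and *Klrd1* (NK cells), *Ccr6* (lymphoid tissue inducer (LTi) cells), *Cd3e* (T cells) and *Mki67* (dividing cells). The members were thus chosen by their own reads of these 9 genes, and the levels of these genes are given below as descriptions. Of 7013 cells that passed the *Id2* limit, 208 were like the members except for *Bcl11b* at or above its limit (early committed cells), 389 had low *Zbtb16* with *Icos* and *Il18r1* at or above 1 (*Icos*+ *Zbtb16*-low cells), and 3976 passed the *Il1rl1* limit (ST2+ cells). These 3 populations serve as comparison, and the limits on *Eomes*, *Klrd1*, *Ccr6*, *Cd3e* and *Mki67* held in all 3 as in the members.

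ILCs are lymphocytes without rearranged antigen receptors. ILCPs are bone marrow precursors of the helper-like ILC groups, past the branch points to NK and LTi cells. PLZF marks them, TCF1 (*Tcf7*) and TOX act before and within this stage, and PD-1 is used to sort them. A cell that commits to the ILC2 fate gains BCL11B, ICOS and IL-17RB, later loses PLZF and PD-1, and gains ST2 and CD25. GATA3 acts both in early ILC precursors and, at a higher level, in ILC2s.

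The study compared αLPs of WT mice with those of G3SEKO mice, in which the tandem super-enhancers downstream of *Gata3* were removed from the germ line by CRISPR/Cas9, so that every cell of the animal lacks them. αLPs are CD127+ LPAM-1+ cells without lineage markers or FLT3. In each of 2 experiments cells of both genotypes carried hashtag antibodies against MHC class I and went through TAS-Seq, a single-cell method, as 1 mixture. The labels give the strain as C57BL/6 for experiment 1 and name none for experiment 2, and they give no age. In experiment 1 the hashtags A0307, A0308 and A0309 mark WT and A0310, A0311 and A0312 mark G3SEKO cells. In experiment 2 the labels list A0302 and A0303 together under WT, although the genotype field of that sample names both genotypes. A0303 was taken as G3SEKO here, so every G3SEKO value of experiment 2 rests on a call that its label does not give, and the values of experiment 1 stand beside it throughout. The study's methods give more mice per genotype than hashtags in both experiments, so hashtags mark cells of pooled mice and are not single animals.

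WT mice gave 199 of the members (53 in experiment 1 and 146 in experiment 2) and G3SEKO mice 251 (8 and 243). A median of 629623 reads and 6975 genes was counted per WT member in experiment 1, against 496459 reads and 6741.5 genes per G3SEKO member. Experiment 2 was shallower, with 46540 and 47900 reads and 2679 and 2753 genes. Of the cell barcodes, 11 numbers occur in both experiments and 0 of them among members in both. The highest mitochondrial share of a member was 9.27%, and the medians lay between 2.61 and 3.26%. The reads were not collapsed by molecule. Intervals below are on numbers of cells and cover counting error only, without the spread between mice or hashtags.

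Most members lay far from the limits. The median *Zbtb16* value was 2.37 in experiment 1 and 2.18 in experiment 2, and 3 of 61 and 29 of 389 members lay within 0.25 of the limit. In experiment 1 the member nearest to it had 1.01 and the nearest cell left out by this limit alone 0.912, and in experiment 2 both lay at 1 after rounding. For *Bcl11b* the nearest values were 0.988 inside and 1.13 outside in experiment 1, and 0.999 and 1.01 in experiment 2. The *Bcl11b* limit alone kept 40 and 168 further cells out of the population. For *Il1rl1* the nearest values were 0.797 and 1.24, then 0.857 and 1.02.

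The label was checked against the 5 ILCP markers that the rule did not use, and each had reads in most members of every experiment and genotype. *Tcf7* reached a value of 1 in 46 of 53 WT members of experiment 1 (86.8%) and in 111 of 146 of experiment 2 (76.0%), and in 5 of 8 and 201 of 243 (82.7%) G3SEKO members. *Il18r1*, the IL-18 receptor chain, reached it in 69.8% and 68.5% of WT and in 75% and 75.3% of G3SEKO members. *Tox* did so in 77.4% and 50.7% of WT members and *Tox2* in 66.0% and 50.7%. In G3SEKO members *Tox* reached it in 4 of 8 and 55.6% and *Tox2* in 4 of 8 and 60.1%. *Pdcd1*, which encodes PD-1, reached 1 in 24 of 53 (45.3%) and 66 of 146 (45.2%) WT members, the lowest shares of the 5 in WT, and in 5 of 8 and 123 of 243 (50.6%) G3SEKO members, so that fewer than all members would have been kept by a PD-1 limit. All 5 markers together reached 1 in 9 of 53 and 17 of 146 WT members and in 0 of 8 and 31 of 243 G3SEKO members. At the deposited depth of experiment 1, where a cell has more reads, 43 of 53 WT members had at least 1 read of each of the 5.

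**Figure D1:**
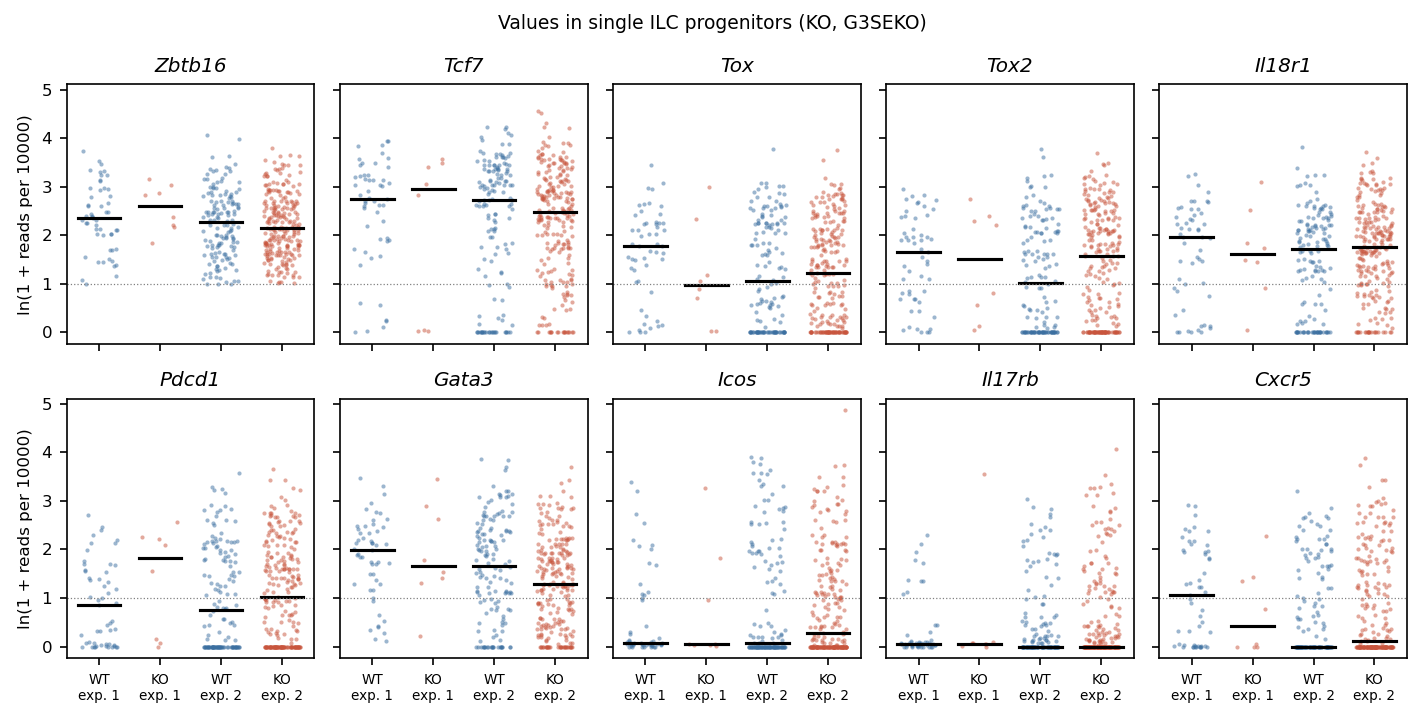
Each point is 1 ILC progenitor, with its ln(1 + reads per 10000) on the vertical axis, WT in blue and G3SEKO (KO) in red, for experiment 1 (53 and 8 cells) and experiment 2 (146 and 243 cells). Black lines are medians and the dotted line is the limit of 1 used in the rule, which set the lower edge of *Zbtb16*; *Icos* and *Il17rb* have medians at or below 0.28 and a minority of high cells.

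Markers of the T, B, myeloid, erythroid and megakaryocyte lineages were at a low level with named exceptions, while those of other ILC lineages were read at more than a low level. Summed over 13 T lineage markers, members had 3353 and 2727 CPM (reads per 1000000 reads of the summed cells) in WT and 3338 and 2523 CPM in G3SEKO cells of experiments 1 and 2, almost all from *Trbc1* and *Trbc2*, the constant regions of the T cell receptor β chain. *Trbc1* alone was at 2549 and 2143 CPM in WT members, while *Cd3e*, a rule gene, was at 0.430 and 0.117 CPM, *Cd5* at 0.0759 and 0 CPM and *Trac*, the α chain constant region, at 0.506 and 0.117 CPM. Among 9 B lineage markers, *Cd79a* was at 0.177 and 0 CPM and most reads were of *Ighm* (344 CPM in experiment 2). Among 11 myeloid markers, *Csf1r* was at 0.354 and 0 CPM and *Lyz2* at 6.93 and 3.74 CPM, whereas *Fcer1g*, the common Fc receptor γ chain that NK cells also use, was at 466 and 328 CPM. The 8 erythroid and megakaryocyte markers summed to between 3.65 and 6.95 CPM in the 4 sums. The 19 NK cell/ILC1 markers summed to 1848 and 973 CPM in WT and 1037 and 887 CPM in G3SEKO members, against 5838 and 2177 CPM in WT NK/ILC1-like cells (*Eomes* or *Klrd1* at or above the limit). Most of these reads in WT members were of *Ccl5*, at 1168 and 344 CPM, and *Nkg7*, at 350 and 399 CPM. The 12 LTi cell/ILC3 markers summed to 1110 and 1295 CPM in WT and 854 and 1419 CPM in G3SEKO members, against 5066 and 4426 CPM in WT LTi/ILC3-like cells (*Ccr6* at or above the limit, 2 and 39 cells). The genes that chose these 2 reference populations are among the summed markers. In WT early committed, *Icos*+ *Zbtb16*-low and ST2+ cells, the LTi cell/ILC3 sums were 594 and 1334, 1198 and 1257, and 1189 and 1374 CPM. The NK cell/ILC1 sums were 2451 and 1290, 1292 and 645, and 300 and 248 CPM in the same order. *Flt3*, absent from the sorted cells by gate, was at 0.126 and 0.935 CPM, and *Il7r*, the chain recognised by the CD127 gate, at 1953 and 2289 CPM.

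How the members differ from the stages around them was described in WT cells, with no test, because the cells were chosen by reads of the same libraries. A gene was counted as higher or lower where the log2 ratio of the sums, after adding 2 reads, was past 2-fold in the same direction in both experiments, among genes at 20 CPM or more in either population in both experiments. Against the early committed cells, 159 of 7635 genes were higher in members (2.08%) and 111 lower (1.45%). Against the *Icos*+ *Zbtb16*-low cells, 279 of 7710 were higher (3.62%) and 251 lower (3.26%). Against the ST2+ cells, 490 of 7840 were higher (6.25%) and 411 lower (5.24%). With 2-fold required in each of the 4 WT hashtags, chosen after seeing the data, 42 and 25, then 110 and 60, then 251 and 262 genes remained. The counts of differing genes were smallest against the early committed cells and largest against the ST2+ cells, and the populations differ in cell number, 31 and 69, 41 and 102, and 418 and 3510 WT cells in the 2 experiments.

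The ILCP markers, the rule gene *Zbtb16* left out, followed the same order. Against the early committed cells 0 of 5 passed the 2-fold rule in either direction, beside 2.08% and 1.45% of all genes. Against the *Icos*+ *Zbtb16*-low cells 3 of 5 were higher in members, beside 3.62% of all genes. Against the ST2+ cells 5 of 5 were higher, beside 6.25%, with a median log2 ratio of 5.11 beside 0.05 over all genes compared. *Tcf7* was at 1796 and 2023 CPM in WT members of experiments 1 and 2, at 1042 and 982 CPM in early committed, 466 and 271 CPM in *Icos*+ *Zbtb16*-low and 53.2 and 41.3 CPM in ST2+ cells. Its log2 ratio to the early committed cells, taken in each of the 4 WT hashtags, was 0.80 ± 0.27 (SD, n = 4 hashtags), higher in 4 of 4. *Tox* was at 645 and 562 CPM in members, 794 and 497 CPM in early committed, 180 and 165 CPM in *Icos*+ *Zbtb16*-low and 73.4 and 59.8 CPM in ST2+ cells. *Tox2* went from 559 and 526 CPM in members to 9.95 and 4.13 CPM in ST2+ cells. *Il18r1* was at 722 and 589 CPM in members and 949 and 850 CPM in *Icos*+ *Zbtb16*-low cells, which a limit on *Il18r1* itself chose. *Pdcd1* was at 248 and 457 CPM in members and 535 and 453 CPM in early committed cells, with a log2 ratio of −0.80 ± 0.56 (SD, n = 4 hashtags) and 1 hashtag of 4 on the other side of 0.

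**Figure D2:**
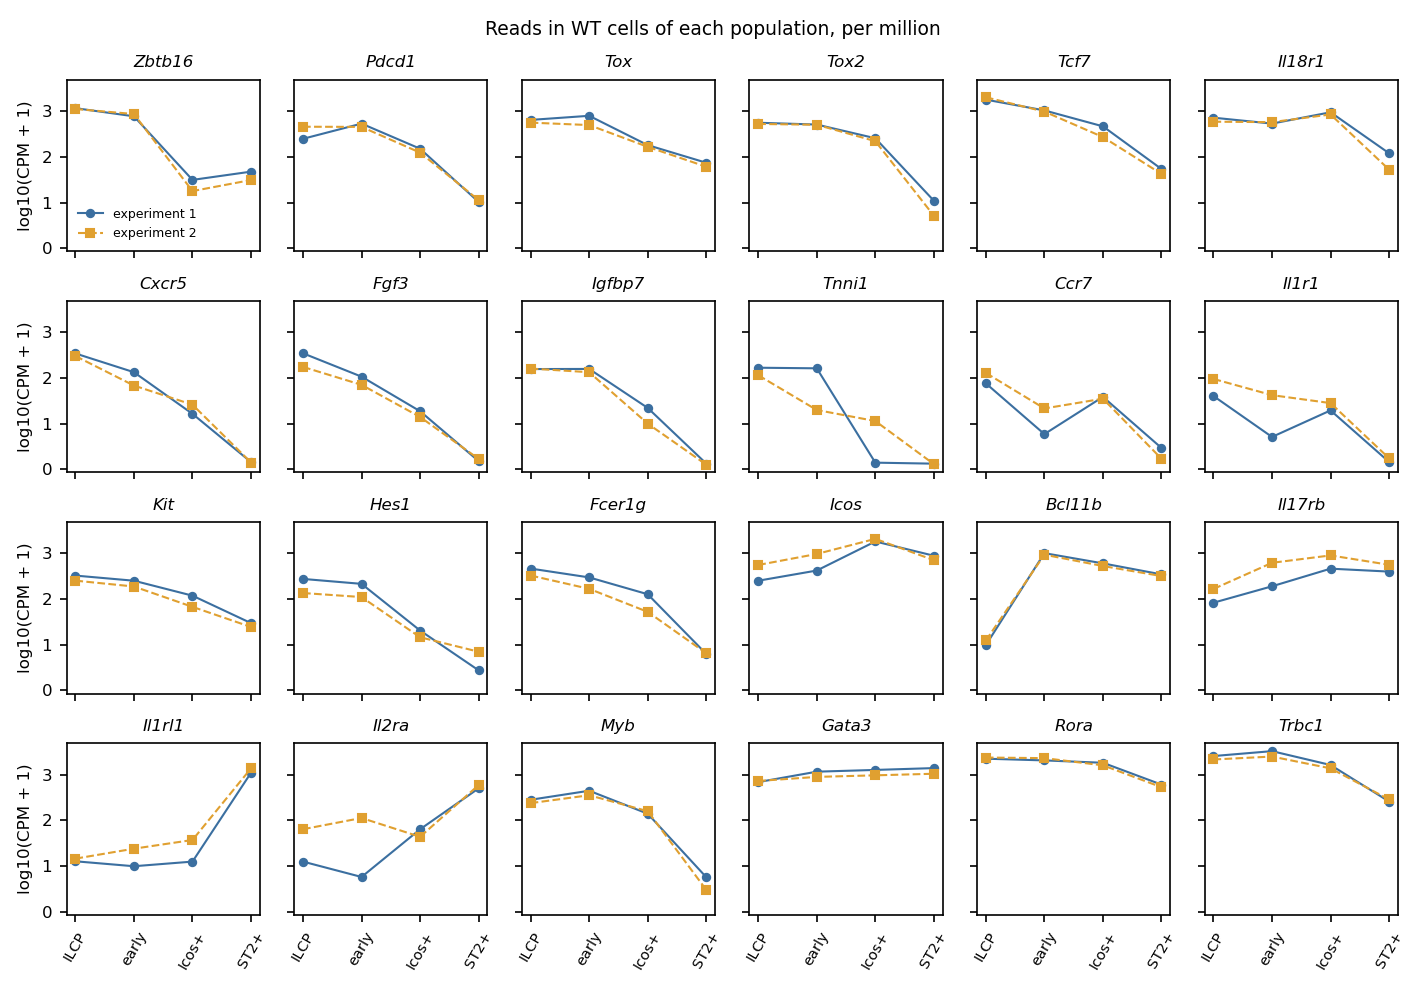
The vertical axis gives log10(CPM + 1) in sums of WT cells for ILC progenitors (ILCP), early committed cells, *Icos*+ *Zbtb16*-low cells (Icos+) and ST2+ cells, with circles for experiment 1 and squares for experiment 2. The ILCP markers other than *Zbtb16*, with *Cxcr5*, *Fgf3*, *Igfbp7*, *Kit* and *Fcer1g* are lowest in the ST2+ cells, where *Cxcr5* has 0.434 and 0.407 CPM, while *Bcl11b*, *Il1rl1* and *Zbtb16* follow from the limits that chose the cells.

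The genes with the largest ratios to the ST2+ cells were led by *Cxcr5*, the receptor of the follicle chemokine CXCL13. *Cxcr5* lies on chromosome 9 (44511787 to 44561877, minus strand, in the GENCODE annotation of GRCm38). Its level in members was 206, 479 and 317 CPM in the WT hashtags A0307, A0308 and A0309 of experiment 1, all above the 3 other populations. It was at 133 and 67.3 CPM in early committed, 15.4 and 25 CPM in *Icos*+ *Zbtb16*-low and 0.434 and 0.407 CPM in ST2+ cells. The ratio to ST2+ cells was 9.38 ± 0.49 on the log2 scale (SD, n = 4 hashtags). Reads of *Cxcr5* were found in 83.0% of WT members in experiment 1 and 47.3% in experiment 2, against 1.23% of ST2+ cells in experiment 2. With each cell thinned to the same number of reads, the limit of experiment 2, these shares were 56.6%, 39.7% and 0.199%, with 11.5% and 21.9% of WT NK/ILC1-like cells beside them. *Cxcr5* was also one of 3 genes of the LTi cell/ILC3 list that were higher in members than in early committed cells, with *Nrp1*, a semaphorin co-receptor, and *Il1r1*, the IL-1 receptor, out of 6 compared, beside 2.08% of all genes. In WT LTi/ILC3-like cells, *Cxcr5* was at 6.38 and 399 CPM, *Nrp1* at 523 and 162 CPM and *Il1r1* at 91.3 and 330 CPM, so that *Nrp1* and *Il1r1* were above the members in both experiments and *Cxcr5* in experiment 2, although experiment 1 holds 2 such cells. *Il1r1* was at 39.3 and 94.4 CPM in members, 4.11 and 41.1 CPM in early committed and 0.445 and 0.738 CPM in ST2+ cells.

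The growth factor genes *Fgf3* and *Fgf15* stood among the same leading genes, while *Csf1*, another growth factor gene, was among those lower in members. *Fgf3* was at 347 and 174 CPM in WT members, 106 and 69.8 CPM in early committed, 17.7 and 13.0 CPM in *Icos*+ *Zbtb16*-low and 0.509 and 0.690 CPM in ST2+ cells, a log2 ratio to ST2+ cells of 8.56 ± 1.12 (SD, n = 4 hashtags). It had reads in 67.9% and 25.3% of WT members and in 0.741% of ST2+ cells of experiment 2. *Fgf15* was at 77.0 and 49.1 CPM in members, with reads in 28.3% and 13.7% of them, and at 0.123 and 0.0896 CPM in ST2+ cells. These neighbours lie on chromosome 7, *Fgf3* from 144838083 to 144844436 and *Fgf15* from 144896531 to 144900953, both on the plus strand and 52094 bases apart. Both encode fibroblast growth factors. *Igfbp7*, which encodes a secreted binding protein for insulin-like growth factors, was at 156 and 160 CPM in members, 157 and 133 CPM in early committed, 21.1 and 9.01 CPM in *Icos*+ *Zbtb16*-low and 0.332 and 0.262 CPM in ST2+ cells. *Tnni1*, a troponin of slow muscle, was at 167 and 114 CPM in members and 0.327 and 0.297 CPM in ST2+ cells. *Htra3*, a serine protease, *Fsd1*, *Arhgef28*, *Il1r2* and *Cd244a*, a SLAM family receptor, complete the 10 with the largest ratios. For *Il1r2* the WT hashtags did not agree, with 3 of 4 higher, and reads were found in 15.1% and 4.79% of WT members only.

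Of the 10 leading genes lower in members than in ST2+ cells, *Il1rl1* and *Bcl11b* were rule genes. With these 2 left out, 9 of 14 ILC2 commitment markers compared were lower and 2 higher, beside 5.24% and 6.25% of all genes, with a median log2 ratio of −2.28. The study had picked *Ptpn13*, *Inpp4b*, *Slc7a8* and *Cnot6l* of this list partly as rising during ILC2 development in these same data. Their direction was therefore partly set beforehand. *Hpgds*, the hematopoietic prostaglandin D synthase, was at 0.531 and 0.935 CPM in WT members and 57.2 and 48.0 CPM in ST2+ cells (log2 ratio −6.35 ± 0.87, SD, n = 4 hashtags). *Cysltr1*, a receptor for cysteinyl leukotrienes, was at 2.86 and 12.3 CPM against 335 and 366 CPM, and *Csf1*, the macrophage growth factor, at 0.455 and 0.935 CPM against 44.6 and 61.9 CPM. *Pcsk1*, a prohormone convertase, was at 0.531 and 1.28 CPM in members, 97.8 and 94.7 CPM in *Icos*+ *Zbtb16*-low and 78.6 and 86.4 CPM in ST2+ cells. *Icosl*, the ligand of ICOS, *Pdcd1lg2*, a ligand of PD-1, *Tsc22d3*, a glucocorticoid-induced gene, and *Sgsh*, a lysosomal sulfatase, were lower in 4 of 4 hashtags, at between 0.0253 and 2.34 CPM in members and 28.5 and 127 CPM in ST2+ cells. *Il2ra*, which encodes CD25, was at 11.4 and 62.5 CPM in members and 499 and 588 CPM in ST2+ cells. The 2 ILC2 commitment markers that were higher in members were *Rora*, at 2230 and 2364 against 603 and 529 CPM, and the Notch target *Hes1*, at 276 and 135 against 1.75 and 6.03 CPM.

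Against the early committed cells, which differ from members by the *Bcl11b* limit, the genes with the largest ratios were fewer in cells and less even between hashtags. *Batf3*, a factor of the AP-1 family, was at 103 and 53.7 CPM in members and 0.496 and 3.70 CPM in early committed cells, and was higher in 4 of 4 WT hashtags (log2 ratio 6.12 ± 2.04, SD). It had reads in 35.8% and 11.6% of WT members, and in 50% and 18.8% of WT NK/ILC1-like cells. *Cd7*, a surface protein of NK and T lineage cells, was at 146 and 97.5 CPM against 13.7 and 3.90 CPM, and at 327 and 204 CPM in *Icos*+ *Zbtb16*-low cells. *Ccr7*, the receptor that guides cells to lymph nodes, was at 75.3 and 128 CPM against 4.89 and 20.5 CPM, and *Nrp1* at 57.3 and 45.6 against 1.28 and 6.57 CPM. *Cacna1g*, *Ttyh2*, *Gpr137* and *Ecm1* were each higher in 4 of 4 hashtags, and *Il1r2* and *Gimap4* in 3 of 4. Of the 10 leading genes in the other direction *Bcl11b* was a rule gene, at 8.83 and 11.4 CPM in members and 1016 and 940 CPM in early committed cells. *Tubb2b*, a β-tubulin, was at 0.0506 and 0 CPM against 26.1 and 21.1 CPM and lower in 4 of 4 hashtags, as were *Ralgps1*, *Clec4e* and *Septin8*. *Igf2*, at 77.0 and 0.701 CPM against 861 and 104 CPM, was higher in members in 1 of 4 hashtags, as were *Zscan18*, *Gtpbp8*, *Rell2* and *Maged2*. *Gata3* was below the early committed level in 4 of 4 hashtags without passing the 2-fold rule, at 684 and 724 CPM in members and 1158 and 890 CPM in early committed cells (log2 ratio −0.72 ± 0.36, SD).

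Relative to the *Icos*+ *Zbtb16*-low cells, *Zbtb16* was a rule gene, and *Rab44*, *Gstm7*, *Tha1*, *Ttyh2*, *Cdkn1a*, *Pde2a* and *Zfp40* stood with *Fgf15* and *Il1r2* among the 10 leading genes that were higher in members. *Gstm7*, a glutathione transferase, was the most even of them, at 27.5 and 44.6 CPM in members and 0.144 and 0.153 CPM in the other cells (log2 ratio 6.44 ± 0.52, SD, n = 4 hashtags). *Cdkn1a*, which encodes the cell cycle inhibitor p21, was at 28.0 and 57.0 against 1.51 and 0.763 CPM. Cell cycle genes other than *Mki67* were lower in members, 7 of 9 compared beside 3.26% of all genes, with a median log2 ratio of −1.50, although both populations were chosen below the *Mki67* limit. *Mcm5*, a subunit of the replicative helicase, was at 17.3 and 26.3 CPM in members and 79.8 and 162 CPM in *Icos*+ *Zbtb16*-low cells, but lower in only 3 of 4 hashtags. The other leading genes that were lower in members were *Caly*, *Hemk1*, *Specc1*, *Iigp1* and *Uhrf1*, a maintenance factor of DNA methylation, beside *Bcl11b*, *Pcsk1*, *Tsc22d3*, *Hpgds* and *Cysltr1*. *Icos* and *Il17rb*, both used to sort committed cells, were lower in members in both experiments and in 4 of 4 hashtags, *Icos* at 252 and 559 against 1833 and 2090 CPM, and *Il17rb* at 82.4 and 166 against 464 and 906 CPM. The *Icos* limit chose the cells of the other population.

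Among the 30 ILC specification transcription factors that were not rule genes, 7 of 25 compared were higher and 2 lower in members than in ST2+ cells, beside 6.25% and 5.24% of all genes. Against early committed cells 0 of 24 passed in either direction, which is near the shares of all genes (2.08% and 1.45%). *Myb*, a factor of immature blood cells, was at 280 and 236 CPM in members, 442 and 352 CPM in early committed and 4.65 and 1.98 CPM in ST2+ cells. *Sox4* was at 585 and 322 CPM in members and 87.5 and 35.5 CPM in ST2+ cells. For *Ikzf2*, which encodes Helios, the levels were 710 and 667 against 294 and 298 CPM. *Runx1* was lower in members than in ST2+ cells, at 13.3 and 34.3 against 85.8 and 90.3 CPM, as was *Gfi1*, at 15.8 and 6.78 against 88.5 and 104 CPM. *Ets1* and *Maf* did not pass the rule against any of the 3 populations. *Tbx21*, which encodes the ILC1 factor T-bet, was at 16.9 and 29.8 CPM in members and at most 0.331 CPM in early committed and ST2+ cells. The *Icos*+ *Zbtb16*-low sums had 49.7 and 1.98 CPM, so that they lay on both sides of the members.

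Surface receptor genes gave mixed counts, to be read beside the 6.25% of all genes that were higher and the 5.24% that were lower than in ST2+ cells. Of 25 cytokine receptor genes compared with ST2+ cells, 5 were higher in members (*Il18r1*, *Il2rb*, *Il1r1*, *Il10ra* and *Kit*) and 6 lower (the rule gene *Il1rl1*, *Il2ra*, *Il4ra*, *Il9r*, *Il17rb* and *Il6st*). *Kit*, the stem cell factor receptor, was at 327 and 253 CPM in members, 252 and 188 CPM in early committed, 118 and 66.7 CPM in *Icos*+ *Zbtb16*-low and 28.8 and 23.5 CPM in ST2+ cells. Of 17 adhesion and homing genes, 4 were higher, among them *Pecam1*, *Cxcr5* and *Ccr7*, and 5 lower, among them *Ccr9*, a gut-homing receptor, at 12.8 and 68.1 against 1031 and 750 CPM. *Ccr2* was higher in members than in early committed cells, at 374 and 653 against 171 and 244 CPM, and *Itga4*, a chain of the LPAM-1 integrin of the gate, was at 882 and 1093 CPM and within 2-fold of all 3 populations. The other chain, *Itgb7*, was lower in members than in ST2+ cells (log2 ratios −1.48 and −1.14). Of 11 co-receptors of the CD28 and TNF receptor families, *Pdcd1*, *Cd244a* and *Tnfrsf9* were higher than in ST2+ cells and *Cd226* lower. NK cell/ILC1 markers were higher than in ST2+ cells for 4 of 5 compared (*Klrk1*, *Il2rb*, *Nkg7* and *Ccl5*), and the fifth, *Cd226*, was lower. *Klrb1c*, which encodes NK1.1, was at 0.354 and 0 CPM and *Xcl1* at 0.303 and 0 CPM in WT members, and the killer genes *Prf1* and *Gzma* were at or below 0.35 CPM.

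By mean level over both experiments, the 10 most abundant genes of WT members, mitochondrial and ribosomal protein genes left out, held *Eef1a1*, *Tmsb4x*, *Actb*, *Hsp90ab1*, *Id2* and *Lmo4* beside the rRNA gene *CT010467.1* and 3 unprocessed pseudogenes of chromosome 1 (*Gm29216*, *Gm28437* and *Gm10925*). Of these *Lmo4*, a LIM domain partner of transcription factors, was the only one past the rule, at 3722 and 2444 CPM in members against 925 and 587 CPM in ST2+ cells. Against ST2+ cells, with the same shares of all genes as background, early lymphoid progenitor genes were higher in members for 4 of 5 compared (*Kit*, *Cd93*, *Mef2c* and *Meis1*), and Notch pathway genes for 1 of 6 (*Hes1*), with 1 lower (*Lfng*). Immediate early genes, which follow handling of cells as well as signals, were lower for 4 of 7 (*Junb*, *Jund*, *Zfp36* and *Klf6*). Their summed level was 674 and 1693 CPM in WT members and 1867 and 4376 CPM in WT ST2+ cells, higher in experiment 2 in both. Of the T lineage, B lineage and myeloid lists only 4, 2 and 2 genes could be compared, of which *Trbc1*, *Fcer1g* and *Irf8* were higher.

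Within the population, cells at or above the limit of 1 for *Il17rb* were a minority. At the deposited depth of experiment 1, 44 of 53 WT and 7 of 8 G3SEKO members had at least 1 read of it. *Il17rb* reached the limit of 1 in 10 of 53 (18.9%) and 31 of 146 (21.2%) WT members and in 1 of 8 and 61 of 243 (25.1%) G3SEKO members. In the sums of these cells *Icos* was at 824 CPM, against 118 CPM in the other WT members of experiment 1, and at 1011 against 423 CPM in WT and 650 against 207 CPM in G3SEKO members of experiment 2. *Tcf7* was lower in the *Il17rb* cells, at 974 against 1989, 1688 against 2125 and 1405 against 1664 CPM in the same 3 sets. *Gata3* did not have 1 direction, at 402 against 750 CPM in experiment 1, 687 against 736 CPM in WT and 517 against 443 CPM in G3SEKO members of experiment 2. *Il17rb* and *Pdcd1* reached the limit together in 5 of 53, 14 of 146 and 28 of 243 of these members. With all cells thinned to the limit of experiment 2, *Il17rb* reads were found in 20.8% and 28.1% of WT members and 28.0% of G3SEKO members of experiment 2.

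*Tbx21* was read in few members. At the limit of 1 it was found in 3 of 53 and 7 of 146 WT members and in 0 of 8 and 10 of 243 G3SEKO members, and together with *Gata3* in 1 and 5 WT members and in 0 and 3 G3SEKO members. Members with *Pdcd1* at or above the limit had more *Gata3* than the others, at 800 against 573 CPM in WT members of experiment 1, at 764 against 670 CPM in WT and 557 against 347 CPM in G3SEKO members of experiment 2. *Tcf7* was at 1801 against 1792, 2423 against 1483 and 1743 against 1388 CPM in the same 3 sets, so that in experiment 1 the sums were nearly equal.

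ILCPs made up a larger share of the *Id2* cells in G3SEKO than in WT mice. In experiment 1 they were 19 of 259, 21 of 232 and 13 of 190 cells in the WT hashtags (7.34, 9.05 and 6.84%) and 4 of 21, 1 of 7 and 3 of 15 cells in the G3SEKO hashtags (19%, 14.3% and 20%). The 3 G3SEKO shares all lay above the 3 WT shares, but each rests on few cells. Pooled, the shares were 7.78% (95% exact binomial interval 5.88 to 10.1%) and 18.6% (8.39 to 33.4%), a ratio of 2.39. In experiment 2 they were 2.85% (2.41 to 3.34%) and 21.0% (18.7 to 23.4%), a ratio of 7.37. The denominator holds the ST2+ cells, which were 61.4% and 68.4% of WT *Id2* cells and 2.33% and 4.06% of G3SEKO *Id2* cells, so the share of any other stage is raised where they are few. Among *Id2* cells below the *Il1rl1* limit, members were 20.6% (15.8 to 26.1%) of WT and 19.5% (8.82 to 34.9%) of G3SEKO cells in experiment 1, a ratio of 0.946, and 9.23% (7.85 to 10.8%) and 21.9% (19.5 to 24.5%) in experiment 2, a ratio of 2.37. The higher G3SEKO share among ST2-negative cells was thus seen in experiment 2 and not in experiment 1, and in experiment 2 the genotype of A0303 rests on the rule.

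**Figure D3:**
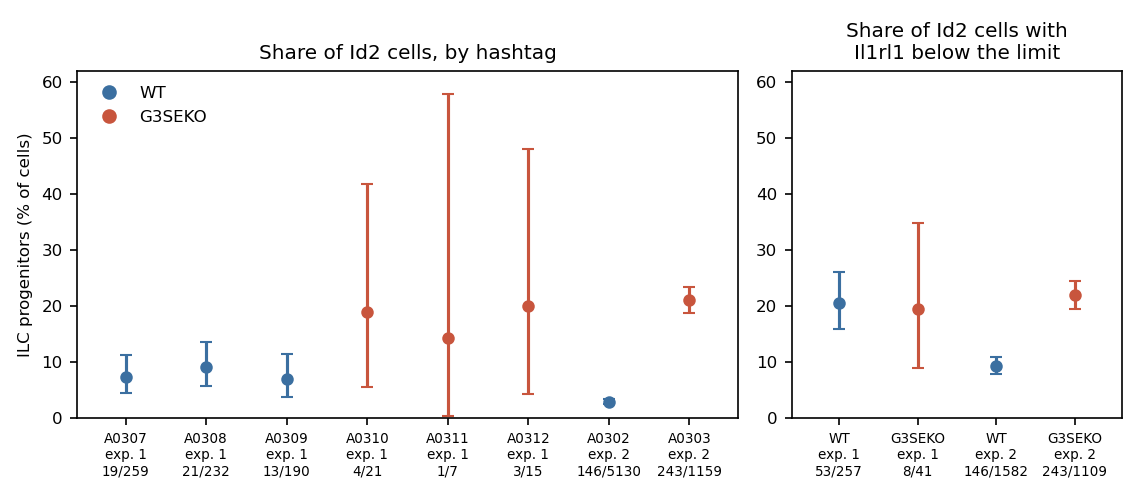
The vertical axes give ILC progenitors as a percentage of cells, with 95% exact binomial intervals and the cell numbers under each point, WT in blue and G3SEKO in red. Left, of all *Id2* cells by hashtag, the G3SEKO points lie at 14.3 to 21.0% and the WT points at 2.85 to 9.05%; right, of *Id2* cells with *Il1rl1* below the limit, the experiment 1 points lie at 20.6 and 19.5%.

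Expression within ILCPs was compared between the genotypes on the 4 sums of reads, with the experiment as a block. Of 14875 genes tested with edgeR's quasi-likelihood test, 0 were called higher (0%) and 0 lower (0%) in G3SEKO members at an adjusted p under 0.05, and 64 and 75 had an unadjusted p under 0.05. DESeq2 called 18 higher and 0 lower. For 17 of these 18, at least 80% of the G3SEKO reads of experiment 1 came from 1 cell, and for 9 from the only cell with a read. By size alone, 94 of 7489 genes were at least 2-fold higher (1.26%) and 103 lower (1.38%) in both experiments. The test has 1 residual degree of freedom and experiment 1 has 8 G3SEKO members. In simulated counts for this comparison edgeR recovered 1.0% of genes changed 2-fold and 10.5% of genes changed 4-fold, and it made 8 false calls beside the 2 right ones and 11 beside 21, so the adjusted p did not hold its error rate there and a count of 0 does not show that few genes differ.

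*Gata3*, whose downstream enhancers were deleted, was read in most members of both genotypes, in 100% of both at the depth of experiment 1 and in 84.9% of WT and 87.7% of G3SEKO members of experiment 2. It reached the limit of 1 in 83% of WT and 7 of 8 G3SEKO members of experiment 1, and in 68.5% and 60.5% in experiment 2. With cells thinned, experiment 2 had reads in 71.9% of WT and 67.1% of G3SEKO members. The gene lies on the minus strand of chromosome 2, between 9857078 and 9890034 of GRCm38. Its level in the WT hashtags A0307, A0308 and A0309 was 672, 795 and 501 CPM, and in the G3SEKO hashtags A0310, A0311 and A0312 it was 1006, 1281 and 652 CPM. In experiment 2 it was 724 CPM in WT and 465 CPM in G3SEKO members. The groups overlapped in experiment 1, and the direction differed between the experiments, with G3SEKO higher in the first (log2 ratio 0.42) and lower in the second (−0.64). edgeR gave a log2 change of −0.04 (SE 0.34, adjusted p = 1), and −0.52 (SE 0.30) with cells thinned, so neither a fall nor a lack of one is shown. In the early committed cells, *Gata3* was at 1158 and 890 CPM in WT and 946 and 579 CPM in G3SEKO sums, in *Icos*+ *Zbtb16*-low cells at 1265 and 963 against 763 and 496 CPM, and in ST2+ cells of experiment 1 at 1388 against 631 CPM. The G3SEKO sums of these populations were lower in both experiments, ST2+ cells of experiment 2 included, while those of ILCPs were higher in the first. The G3SEKO sum of ST2+ cells in experiment 1 holds 1 cell, and the difference between populations was not tested.

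The ILCP markers were close between the genotypes. *Zbtb16*, a rule gene, was at 1168 and 1302 CPM (WT and G3SEKO) in experiment 1 and 1120 and 947 CPM in experiment 2. *Tcf7* was at 1796 and 1964, then 2023 and 1587 CPM, *Tox* at 645 and 546, then 562 and 522 CPM, and *Tox2* at 559 and 595, then 526 and 657 CPM. *Il18r1* was at 722 and 691, then 589 and 637 CPM. The largest ratio among the 6 was that of *Pdcd1* in experiment 1, from 248 to 525 CPM (log2 ratio 1.08), with 457 and 416 CPM in experiment 2. Only *Tox2* was higher and only *Tox* lower in both experiments, and 0 of 6 had an unadjusted p under 0.05 in the edgeR test.

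Genes of ILC2 commitment gave ratios in both experiments that the test did not call. Of 14 ILC2 commitment markers tested, the rule genes *Bcl11b* and *Il1rl1* left out, 8 were lower and 1 higher in G3SEKO members in both experiments, beside 30.4% and 20.1% of all genes tested, and their median log2 change was −0.25 beside −0.17. The study had picked *Inpp4b*, *Ptpn13*, *Slc7a8* and *Cnot6l* of this list partly as differing between the genotypes in these same data. The count is therefore not independent support. *Inpp4b*, a phosphoinositide phosphatase, was at 15.6 and 4.39 CPM in experiment 1 and 120 and 28.9 CPM in experiment 2 (log2 change −1.87, SE 0.89, adjusted p = 1 from edgeR). With cells thinned it had reads in 19.2% of WT and 8.64% of G3SEKO members of experiment 2, and in 28.1% of WT NK/ILC1-like cells, so that these shares do not exceed the level in another cell type. *Rnf128*, *Ptpn13*, *Slc7a8* and *Ly6a* were lower in both experiments, with experiment 2 levels of 42.3 and 3.09, 18.9 and 1.07, 21.0 and 0.945, and 158 and 20.2 CPM. In experiment 1 these 4 genes were at or below 9.46 CPM in both genotypes. ST2+ cells, which had *Ly6a* at 860 and 1337 CPM and *Inpp4b* at 665 and 1127 CPM in WT mice, were the larger part of the WT *Id2* cells in both experiments, and their part in these values was not tested.

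**Figure D4:**
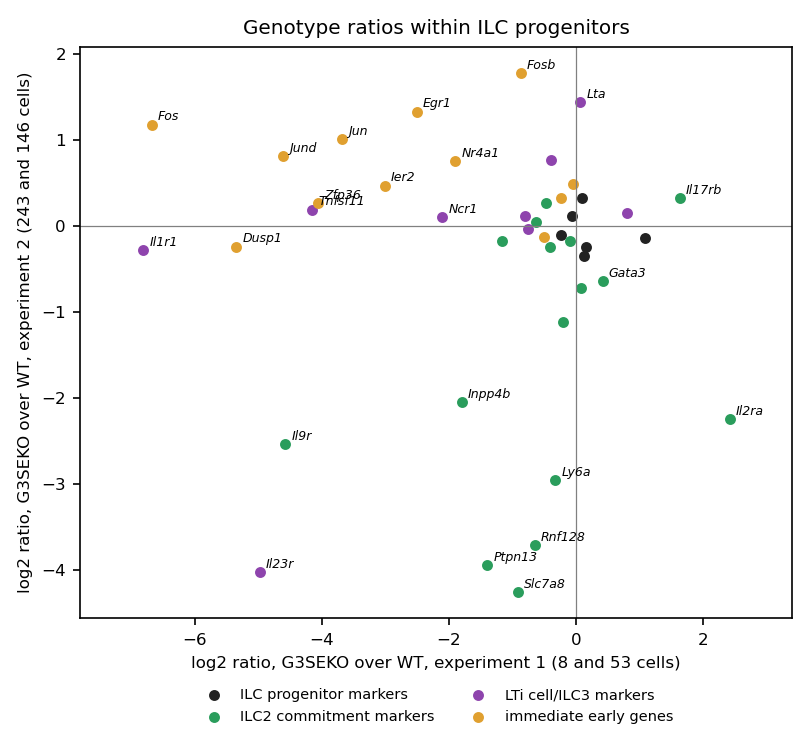
Each point is a gene of 4 lists, with the log2 ratio of G3SEKO over WT ILC progenitors in experiment 1 (8 and 53 cells) on the horizontal and in experiment 2 (243 and 146 cells) on the vertical axis. The ILC progenitor markers lie near 0 with *Pdcd1* at 1.08 and −0.14, several ILC2 commitment markers lie low in experiment 2, and immediate early genes lie below 0 in experiment 1 and mostly above it in experiment 2.

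*Ccl5*, an inflammatory chemokine of the NK cell/ILC1 list, had the smallest p of the edgeR test and still failed the adjustment (log2 change −1.59, SE 0.28, adjusted p = 1). With cells thinned to the same number of reads the log2 change was −0.17 (SE 0.36), and with sums per hashtag −5.00 (SE 1.65), which left out A0311. It was at 1968, 1056 and 89.6 CPM in the 3 WT hashtags and 19.6, 1754 and 4.95 CPM in the 3 G3SEKO hashtags of experiment 1, and at 344 and 149 CPM in experiment 2. The hashtags of 1 genotype spanned a wider range than the genotypes differed by. *Ikzf3* was at 278 and 545, then 475 and 504 CPM, *Atp8b4* at 79.8 and 174, then 227 and 231 CPM, and *Pecam1* at 296 and 188, then 200 and 243 CPM. *Cxcr5*, at 344 and 204 CPM in experiment 1 and 296 CPM in G3SEKO members of experiment 2, and *Fgf3*, at 347 and 463, then 174 and 187 CPM, were present in both genotypes. *Cxcr5* reads were found in 5 of 8 and 51.4% of G3SEKO members. *Batf3* and *Il1r2*, by contrast, had no read in the 8 G3SEKO members of experiment 1, while *Batf3* was at 90.8 CPM in G3SEKO and 53.7 CPM in WT members of experiment 2. Immediate early genes had a median log2 ratio of −2.76 in experiment 1 and 0.62 in experiment 2, so their direction differed between the experiments. *Fos* was at 9.33 and 0 CPM, then 286 and 649 CPM.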

How the data were processed

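The authors trimmed adapters, aligned with Bowtie2 to GRCm38 (Ensembl) and deposited a table of read counts for each experiment, whose cell names carry the hashtag call, and counts of hashtag reads. These counts are not normalized and not collapsed by molecule. Cells named with 1 hashtag, above the study's read minimum of each experiment and with at most 10% mitochondrial reads were kept (800 and 7522 of 1033 and 7630). Doublets were removed only through the authors' hashtag calls. Neither edgeR nor DESeq2 was run on cells: reads of members were summed per genotype and experiment and tested with edgeR 4.0.16 (TMM, low counts filtered, Benjamini-Hochberg adjustment, experiment as block, R 4.3.3), with DESeq2 1.42.0 as an alternative. The test was tested on simulated data. Ratios add 2 reads. Thinning drew reads at random from each cell down to the limit of experiment 2. Named genes were those of fixed lists and, per stage comparison and direction, the 10 with the largest ratio in the experiment where it was smaller, plus the 10 most abundant genes; those against *Icos*+ *Zbtb16*-low cells were added after their values were seen. Members and lists were chosen with earlier results of these data known. Cells of several mice were pooled, so the sums are not single animals and p-values measure the spread between these sums. Genes such as *Il22*, *Il17a*, *Gzmb* and *Notch3* were not analysed here. Some other genes of the lists are counted but not reported here.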

Additional observations from a re-analysis of the deposited data

How the results depend on the processing

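The count of genes called higher in G3SEKO ILCPs was 0 under each edgeR alternative and 18 with DESeq2, and that of genes called lower was 0 under all 22 alternatives, sums per hashtag and experiment 1 alone included. The log2 change of *Gata3* turned from −0.04 to 0.16 with *Pdcd1* also at or above 1, to 0.05 with at most 5% mitochondrial reads, to 0.01 with DESeq2 and with RLE size factors, to 0.08 with no replicate block, to 0.16 with sums per hashtag and to 0.48 in experiment 1 alone. When 1 hashtag at a time was left out it ranged from −0.14 to 0.48 (−0.14 without A0310, 0.14 without A0312, 0.12 without A0307, 0.22 without A0308, 0.46 without A0303 and 0.48 without A0302). Over all alternatives it lay between −0.52 (SE 0.30), the value with cells thinned, and 0.48. Its adjusted p lay between 0.51 and 1, so *Gata3* was called under no setting. Sums per hashtag leave out A0311 (1 member), which had the highest G3SEKO values of *Gata3* (1281 CPM) and *Ccl5* (1754 CPM) in experiment 1. *Ccl5* (−6.29 to −3.63 in those fits, −0.17 with cells thinned and −1.76 to −1.13 in the others) and *Inpp4b* (−2.06 to −0.98) stayed below 0 under all 22 alternatives, with adjusted p between 0.25 and 1. The share ratio of experiment 1 was 0.946 among *Id2* cells below the *Il1rl1* limit and that of experiment 2 was 2.37. With *Pdcd1* required the ratio was 3.3 in experiment 1 and 8.25 in experiment 2. The other limits and filters gave 1.7 to 2.82 in experiment 1 and 6.96 to 7.58 in experiment 2. Without 1 hashtag of experiment 1 at a time, chosen after seeing the data, the ratio of experiment 1 lay between 2.28 and 2.61. Requiring a 2-fold ratio in each of the 4 WT hashtags, also chosen after seeing the data, left 42 genes higher and 25 lower than in early committed cells, 110 and 60 than in *Icos*+ *Zbtb16*-low cells, and 251 and 262 than in ST2+ cells. The cause of these changes was not tested. The number of cells, 8 G3SEKO members in experiment 1, limits the genotype comparison.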
